A study of Mus musculus with 12 samples.

Results

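Transcripts of central myelin were examined in RNA from CD11b-positive cells of the mouse cerebral cortex. The 9 genes, *Mbp*, *Mobp*, *Mag*, *Mog*, *Cnp*, *Cldn11*, *Mal*, *Ermn* and *Opalin*, were taken by name from the 55487 genes of the raw count table, after its Ensembl identifiers had been matched to symbols of the GRCm38 annotation. All 9 passed the filter on low counts, which 15425 genes passed.

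Myelin in the brain is made by oligodendrocytes, which wrap their membrane around axons, while microglia are myeloid cells that do not make myelin but can take it up. MBP and MOBP are small basic proteins of compact myelin, and their mRNAs are known to be carried into the processes of the oligodendrocyte and translated there, whereas mRNAs of most membrane proteins are translated in the cell body. A count table gives the RNA of the whole isolate and does not say from which cells a transcript came.

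The isolate came from male mice of 2 strains. WT mice were C57BL/6J, and *App* NL-G-F mice carry a knock-in *App* gene with a humanized Aβ sequence and the Swedish, Iberian and Arctic mutations, expressed from the endogenous promoter in all cells that use it. From 9 months of age, mice received 24 intravenous injections over 12 weeks of either PBS (veh) or 10 mg/kg rh Bri2 BRICHOS R221E, a monomeric variant of the chaperone domain of Bri2, and were then left untreated for 4 weeks. This gave 4 groups of 3 mice: WT veh, WT BRICHOS, *App* NL-G-F veh and *App* NL-G-F BRICHOS. Cells were released from the cortex with papain, passed through a density gradient and bound to anti-CD11b beads, and each library holds the mRNA of the whole bound fraction.

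The libraries held 12433402 to 17889654 counts. Libraries of the same group differed by 5.81 to 34.1 times the sampling variance, so none was a repeat of another. The isolate had the markers of its labelled cell type, with a summed level of 8 microglial genes between 24294 and 29144 CPM, which here are counts relative to the library size after scaling with TMM factors. *P2ry12* was between 1278 and 2861 CPM and *Cx3cr1* between 3373 and 4903 CPM in single libraries. Of 6 genes linked to peripheral myelin, 4 did not pass the filter, and *Pmp2* among them had no count in any library. The other 2, named after their values were seen, were *Pmp22* at 288 to 632 CPM and *Egr2* at 145 to 277 CPM. *Pmp22* was higher in *App* NL-G-F than in WT mice (log2 fold change 0.75, adjusted p = 8.13e-06, with veh, and 0.95, adjusted p = 1.14e-06, with BRICHOS).

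The regions upstream of these genes are shown first. As described further on, the 9 transcripts followed 2 different patterns, one of which included *Mobp* and the other *Mag*, *Mog* and *Opalin*. Whether the upstream regions bear on these patterns was not tested. RefSeq promoters of GRCm38.p6 were used for 8 of the 9 genes. That of *Mbp* was not examined, so *Mobp* alone stands for its pattern here. The runs are the bases before the most upstream RefSeq start, 5′ to 3′ on the strand of the gene, with bases that GENCODE places inside the gene left out. Capitals mark the letters of a SOX type motif (ACAAAG or ACAATG) or of a MYRF type motif (CTGGCAC or CTGGTAC) on either strand. SOX10 and MYRF are transcription factors that oligodendrocytes need to make myelin. *Mobp* lies at chr9:120149492-120149706 (+), *Mag* at chr7:30914923-30915172 (−), *Mog* at chr17:37023399-37023648 (−) and *Opalin* at chr19:41077114-41077363 (−).

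Mobp: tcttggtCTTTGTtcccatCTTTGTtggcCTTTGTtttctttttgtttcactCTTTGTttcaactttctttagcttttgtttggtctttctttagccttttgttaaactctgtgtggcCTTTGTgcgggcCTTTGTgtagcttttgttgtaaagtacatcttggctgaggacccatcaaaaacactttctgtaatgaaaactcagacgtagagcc
Mag: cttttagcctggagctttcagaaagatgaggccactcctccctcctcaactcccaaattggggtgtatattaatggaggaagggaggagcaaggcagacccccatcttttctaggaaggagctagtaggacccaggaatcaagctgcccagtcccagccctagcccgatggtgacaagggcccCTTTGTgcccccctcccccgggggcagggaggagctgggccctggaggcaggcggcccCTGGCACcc
Mog: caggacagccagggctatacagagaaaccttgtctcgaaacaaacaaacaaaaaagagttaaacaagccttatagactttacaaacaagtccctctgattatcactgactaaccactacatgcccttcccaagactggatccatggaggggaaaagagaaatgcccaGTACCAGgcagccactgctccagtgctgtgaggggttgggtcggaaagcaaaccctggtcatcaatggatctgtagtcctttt
Opalin: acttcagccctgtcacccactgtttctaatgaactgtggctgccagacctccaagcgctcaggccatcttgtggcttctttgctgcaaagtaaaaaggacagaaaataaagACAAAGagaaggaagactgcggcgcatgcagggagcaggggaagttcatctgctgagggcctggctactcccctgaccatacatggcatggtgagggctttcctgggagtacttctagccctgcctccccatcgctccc

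The 250 bases before the start of *Mobp* held 6 SOX type matches and no MYRF type match. *Mag* held 1 of each, next to its start for the MYRF type, *Mog* held 1 MYRF type match and *Opalin* 1 SOX type match. *Ermn* held 1 SOX type match and no MYRF type match, and *Cldn11* and *Mal* held neither. A SOX type match was thus present in genes of both patterns, although *Mobp* held 6 and each other gene at most 1. A MYRF type match was found only in some genes of the pattern of *Mag*. With *Mobp* alone standing for its pattern, these counts cannot show whether the motifs divide the genes as the 2 patterns do. Over the 8 genes, a SOX type match was present in 5 and a MYRF type match in 3 (*Mag*, *Mog* and *Cnp*), while 25.4% and 5.88% of 27025 promoters of the same length held one. TATAAA was in 0 of the 8 windows and in 13% of all promoters. The motifs did not overlap one another, and a match is only a run of letters, not a measured binding site.

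*Mbp* was among the most abundant transcripts of the isolate. In WT veh mice its levels were 7061, 10708 and 5975 CPM, and in WT BRICHOS mice 8199, 3543 and 2640 CPM. In *App* NL-G-F veh mice they were 1334, 1931 and 2984 CPM, and in *App* NL-G-F BRICHOS mice 2758, 3533 and 2461 CPM. All 3 WT veh libraries lay above all 6 libraries of *App* NL-G-F mice, whereas the WT BRICHOS libraries spread over the range of both strains. By raw count, *Mbp* ranked between 2nd and 83rd among all genes of a library.

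*Mobp*, which encodes the other small basic protein, had 2199, 3513 and 1922 CPM in WT veh mice and 2667, 1117 and 854 CPM in WT BRICHOS mice. Its levels were 443, 546 and 919 CPM in *App* NL-G-F veh mice and 814, 1043 and 748 CPM in *App* NL-G-F BRICHOS mice. The order of the libraries was close to that of *Mbp*, with WT veh 2 highest and *App* NL-G-F veh 1 lowest for both.

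*Mag* encodes an adhesion protein of the innermost myelin membrane, facing the axon. It had 388, 210 and 156 CPM in WT veh mice and 380, 191 and 67.7 CPM in WT BRICHOS mice. In *App* NL-G-F mice it had 117, 102 and 152 CPM with veh and 219, 55.5 and 109 CPM with BRICHOS. Here WT veh 1 and WT BRICHOS 1 were the highest and *App* NL-G-F BRICHOS 2 the lowest library, although the latter was the highest of the 6 *App* NL-G-F libraries for *Mbp*.

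*Mog*, an immunoglobulin-like protein of the outermost myelin surface, had 95.2, 53.2 and 34.1 CPM in WT veh mice and 98.2, 43.4 and 11.3 CPM in WT BRICHOS mice. It had 29.9, 23.9 and 36.0 CPM in *App* NL-G-F veh mice and 54.7, 12.1 and 26.5 CPM in *App* NL-G-F BRICHOS mice. The groups overlapped, and in both BRICHOS groups replicate 1 stood far above the lowest library.

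*Cnp* encodes an enzyme of non-compact myelin that binds the cytoskeleton. It had 581, 350 and 259 CPM in WT veh, 595, 317 and 141 CPM in WT BRICHOS, 238, 212 and 267 CPM in *App* NL-G-F veh and 369, 133 and 205 CPM in *App* NL-G-F BRICHOS mice. *Cnp* overlaps *Dnajc7* on the opposite strand, a gene with 29926 counts over all libraries, and the strand setting of the counting was not given in the sources used here, so part of its count may belong to *Dnajc7*. Its range over the libraries was the narrowest of the 9, with the highest level 4.48 times the lowest.

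The other 4 transcripts had the same order of libraries in broad outline, with WT BRICHOS 1 highest and WT BRICHOS 3 or *App* NL-G-F BRICHOS 2 lowest. *Cldn11*, which forms the tight junctions of the myelin sheath, ranged from 23.5 to 212 CPM. *Mal*, a proteolipid of membrane sorting, ranged from 46.1 to 393 CPM, and *Ermn*, a cytoskeletal protein of the late oligodendrocyte, from 16.3 to 147 CPM. *Opalin*, a membrane glycoprotein of oligodendrocytes, was the least abundant, with 5.05 to 54.8 CPM and 79 to 871 counts per library.

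**Figure D1:**
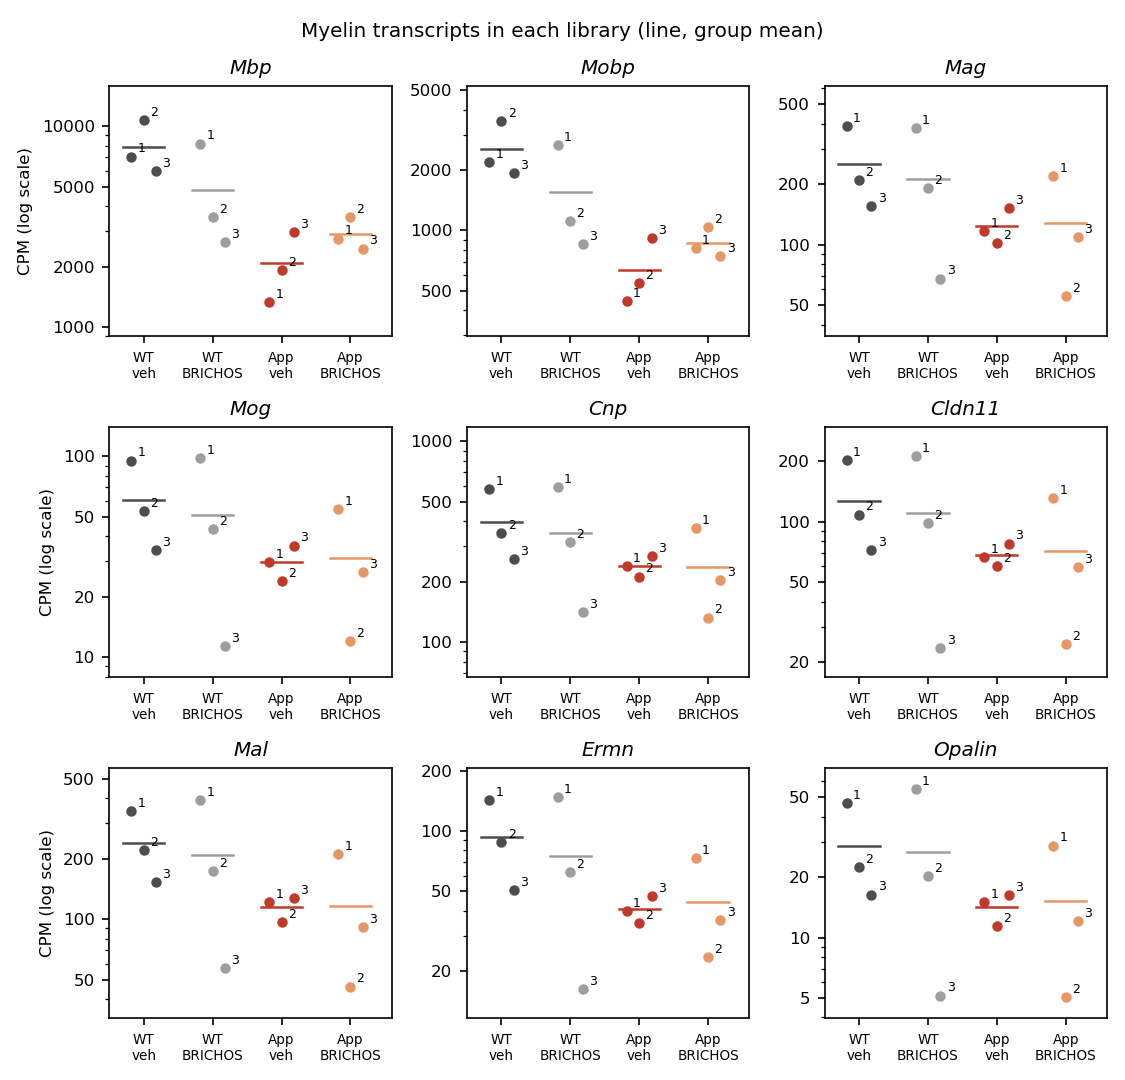
Level of each of the 9 transcripts in CPM (log axis, each panel spanning the same number of log units) by group, with 1 point per library, numbered by replicate, and a line at the group mean (n = 3). *Mbp* and *Mobp* share one layout, with all WT veh libraries above all *App* NL-G-F libraries, and the other 7 panels share another, in which *App* NL-G-F BRICHOS 2 and WT BRICHOS 3 are the lowest.

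Compared between genes per kilobase of exon in the annotation, the median level over the 12 libraries was 385 CPM per kb for *Mbp*, 143 for *Mobp*, 72.3 for *Cnp*, 50.4 for *Mal*, 40.1 for *Cldn11* and 37.8 for *Mag*. It was 20.6 CPM per kb for *Mog*, 13.5 for *Ermn* and 5.53 for *Opalin*. The ranges of *Cldn11* and *Mag* over libraries overlapped widely, and so did those of *Cnp* and *Mal*. Within the same library, however, *Cnp* was above *Mal* each time. *Cldn11* and *Mag* changed order, with 108 and 95.3 CPM per kb in WT veh 1 but 12.6 and 16.6 in WT BRICHOS 3. The exon length of *Mbp* includes exons of its long Golli transcripts, which the table does not separate from the myelin transcripts.

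Together the 9 genes took 0.229% to 1.6% of the counts of a library. Their summed level was 11062, 15272 and 8637 CPM in WT veh, 12745, 5565 and 3816 CPM in WT BRICHOS, 2406, 3018 and 4627 CPM in *App* NL-G-F veh and 4659, 4875 and 3748 CPM in *App* NL-G-F BRICHOS mice. The mean was 11657 ± 3357 (SD, n = 3), 7375 ± 4732, 3350 ± 1147 and 4427 ± 598 CPM in this order. *Mbp* and *Mobp* made up 73.9% to 93.9% of the sum, which therefore mainly follows these 2 genes. In bulk samples, fewer cells of a type and less RNA per cell cannot be told apart.

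The ratio between 2 genes in the same library does not depend on the scaling of the libraries. *Mobp* had 0.283 to 0.332 counts for each count of *Mbp*, so that the highest ratio was 1.18 times the lowest over the 12 libraries, while the highest level was 8.02 times the lowest for *Mbp* and 7.93 times for *Mobp*. *Mbp* and *Mag*, in contrast, did not keep a ratio. *Mbp* had 18.2, 51.1 and 38.3 counts for each count of *Mag* in WT veh, 21.6, 18.6 and 39.0 in WT BRICHOS, 11.4, 19.0 and 19.7 in *App* NL-G-F veh and 12.6, 63.7 and 22.6 in *App* NL-G-F BRICHOS libraries. The highest and the lowest of these ratios both occurred in *App* NL-G-F mice. In the *App* NL-G-F veh group all 3 were at most 19.7, and each other group held a library at 39.0 or more.

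The other members fell in with *Mag*. For the 14 pairs of *Mbp* or *Mobp* with another member, the highest ratio was 4.69 to 7.90 times the lowest (median 6.0). For the 21 pairs among the other 7 it was 1.23 to 2.52 times (median 1.72), with *Mog* and *Cldn11* closest and *Cnp* and *Opalin* farthest apart. The 9 transcripts therefore did not behave as a single quantity in these libraries.

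**Figure D2:**
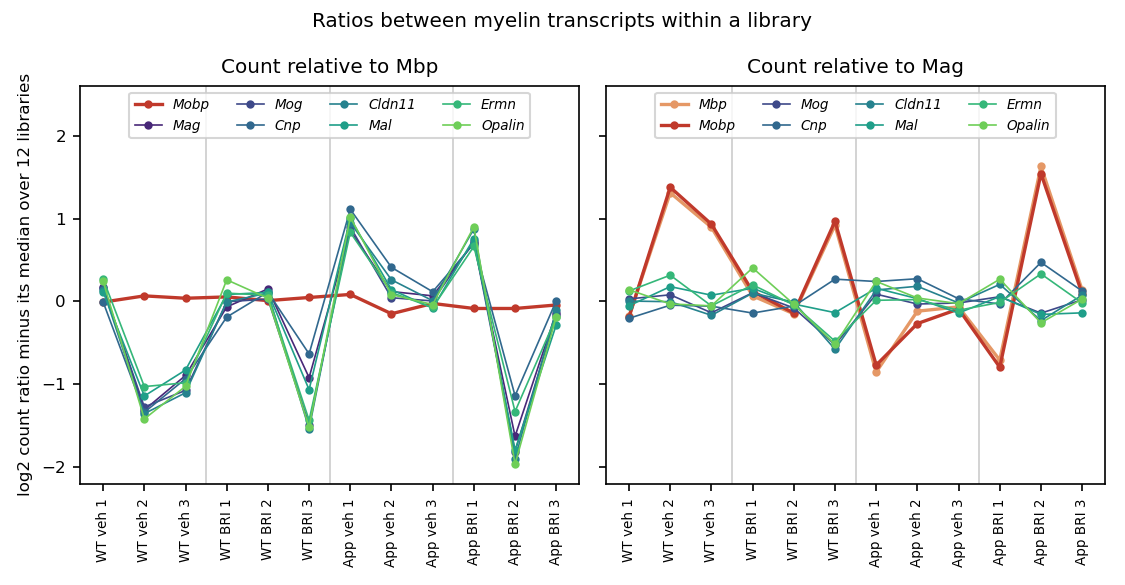
Log2 ratio of the raw counts of each transcript to *Mbp* (left) or to *Mag* (right) in each of the 12 libraries (x axis, in the order of the groups), minus the median of that ratio. *Mobp* stays close to 0 relative to *Mbp*, whereas the other 7 move together, highest in *App* NL-G-F veh 1 and low in WT veh 2, WT BRICHOS 3 and *App* NL-G-F BRICHOS 2.

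The same was seen within groups. When the group means were removed from log2 CPM, the deviations of *Mag*, *Mog*, *Cnp*, *Cldn11*, *Mal*, *Ermn* and *Opalin* had Pearson correlations of 0.989 to 0.999 with the mean of these 7 and of 0.456 to 0.582 with the mean of *Mbp* and *Mobp* (12 libraries, which share their depth between genes, and each mean contains the gene itself). The deviations of *Mbp* and *Mobp* correlated at 0.998 with their own mean and at 0.489 and 0.491 with that of the other 7.

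The 29 other oligodendrocyte genes, all of which were measured, were divided in the same way. The SD over the libraries of the log2 ratio to each of the 2 means was used, with the differences between groups left in. For 26 genes it was smaller with the 7, and for 3 genes, *Bcas1*, *Plekhb1* and *Tppp*, with *Mbp* and *Mobp*. *Bcas1*, a protein of myelinating oligodendrocytes, had an SD of 0.0455 with *Mbp* and *Mobp* and of 0.867 with the 7. *Plekhb1*, which encodes a membrane-associated protein, had 0.140 and 0.747. *Tppp*, a tubulin-binding protein, stood between the patterns with 0.451 and 0.560.

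Most genes of the list were on the other side. *Myrf* had an SD of 0.0995 with the 7 and of 0.885 with *Mbp* and *Mobp*. *Sox10*, *Olig1* and *Olig2*, further transcription factors of the lineage, had 0.212, 0.333 and 0.439 with the 7 and 0.735, 0.778 and 0.914 with *Mbp* and *Mobp*. *Trf*, the transferrin gene, was close to neither (0.933 and 0.976) and varied little, between 1731 and 2457 CPM.

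The levels show the division directly. *Bcas1* had 475, 790 and 429 CPM in WT veh, 594, 234 and 188 CPM in WT BRICHOS, 95.1, 122 and 203 CPM in *App* NL-G-F veh and 178, 246 and 166 CPM in *App* NL-G-F BRICHOS mice. *Myrf* had 122, 63.2 and 43.5 CPM in WT veh, 125, 51.6 and 14.2 CPM in WT BRICHOS, 36.2, 29.8 and 46.7 CPM in *App* NL-G-F veh and 66.3, 14.1 and 30.0 CPM in *App* NL-G-F BRICHOS mice. As with *Mbp* and *Mag*, *App* NL-G-F BRICHOS 2 was the highest *App* NL-G-F library for *Bcas1* and the lowest for *Myrf*.

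**Figure D3:**
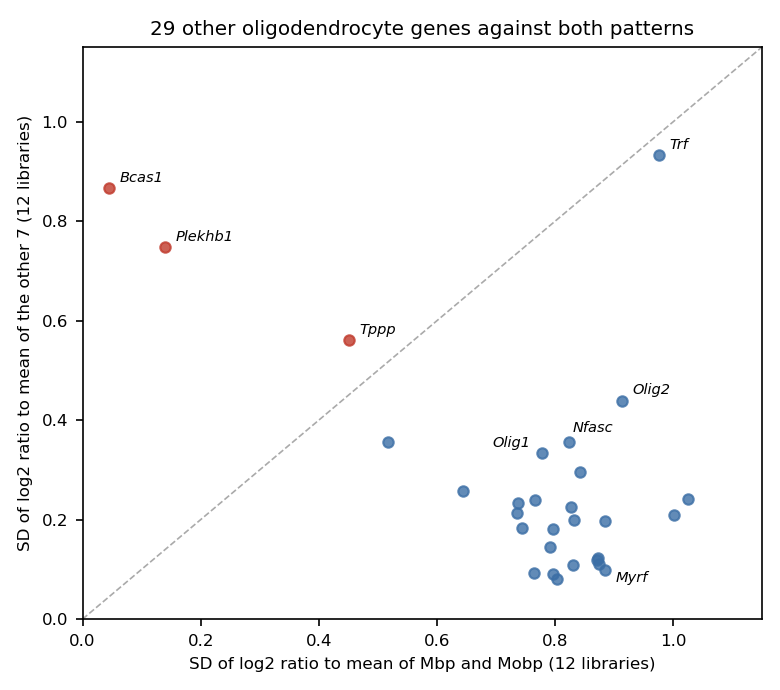
SD over the 12 libraries of the log2 ratio of 29 other oligodendrocyte genes to the mean of *Mbp* and *Mobp* (x axis) and to the mean of the other 7 members (y axis), with the line of equal SD dashed. *Bcas1*, *Plekhb1* and *Tppp* (red) lie above the line, the other 26 genes (blue) below it, and *Trf* is far from both axes.

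Genes of like pattern were then taken from all 15416 genes that are no members, by the correlation of their deviations from the group means. The 10 genes most like the mean of all 9 members included *Tmem88b* (r = 0.998), *Ugt8a* (r = 0.996), *Plekhh1*, *Ppp1r16b*, *Gnai1*, *Ccp110*, *Trim59*, *Cntn2* and *Tspan2*, of which 6 are on the list of 29. This mean mostly reflects the 7 genes. The means of the 2 patterns were compared separately after their values were seen. The 10 genes most like *Mbp* and *Mobp* were *Bcas1* (r = 0.997), *Pkp4* (r = 0.991), *Dbndd2* (r = 0.989), *Plekhb1* (r = 0.980), *Prr18*, *Trak2*, *Sh3gl3*, *Stx6*, *Tgfb3* and *Trp53inp2*. The 10 genes most like the 7 included *Myrf* (r = 0.999), *Cntn2*, *Edil3*, *Tspan2*, *Arhgap23*, *Ugt8a*, *Slco3a1*, *Efnb3* and *Lgi3*, and the last 2 lists had 0 genes in common.

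Without BRICHOS, *Mbp* and *Mobp* were lower in *App* NL-G-F mice than in WT mice. The mean of *Mbp* was 2083 ± 835 CPM against 7914 ± 2479 CPM (SD, n = 3 each), a log2 fold change of −1.93 ± 0.42 (SE) or 3.80-fold lower, with an adjusted p of 0.00370 (edgeR's quasi-likelihood test, Benjamini-Hochberg over 15425 genes). That of *Mobp* was 636 ± 250 against 2545 ± 850 CPM, a log2 fold change of −2.0 ± 0.42 or 4.00-fold lower, with an adjusted p of 0.00294. For both genes the highest *App* NL-G-F library lay below the lowest WT library.

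The other 7 transcripts also had lower means in *App* NL-G-F mice but did not pass the test. Their log2 fold changes were between −1.21 (*Ermn*) and −0.73 (*Cnp*), with SEs of 0.48 to 0.74 and adjusted p-values of 0.164 to 0.333. *Mag* had 124 ± 25.6 against 251 ± 121 CPM (log2 fold change −1.02, 95% interval −2.31 to 0.26) and *Mog* 29.9 ± 6.02 against 60.8 ± 31.3 CPM (−1.03). The 95% intervals of all 7 include no difference, and those of all but *Cnp* (−1.78 to 0.33) also include the values of *Mbp* and *Mobp*.

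Thus 2 of 9 members were called lower, where 16.9% of all tested genes were called lower and 37% in either direction. All 9 log2 fold changes were below 0, with a median of −1.03 against −0.02 over all tested genes. The groups did not overlap for 6 of the 9 (*Mbp*, *Mobp*, *Mag*, *Mal*, *Ermn* and *Opalin*), and for 25.3% of all genes with lower levels in *App* NL-G-F mice. The gap was narrow for *Opalin*, with 16.4 CPM in WT veh 3 and 16.2 CPM in *App* NL-G-F veh 3, and for *Mag*, with 156 and 152 CPM. *Mag*, *Mal*, *Ermn* and *Opalin* also share a pattern over the libraries, so they are not separate results. With total counts in place of TMM factors the median of all genes was −0.21, and 2004 of 7202 called genes were higher in place of 3099 of 5710.

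The number of members called differed between fits. With only the 6 compared libraries in the fit, edgeR called 6 members (*Mbp*, *Mobp*, *Ermn*, *Mal*, *Mag* and *Mog*) and DESeq2's Wald test 4 (*Mbp*, *Mobp*, *Ermn* and *Mal*), all lower. These fits called 19% of 14480 and 14.3% of 15893 genes lower. They also differ from the main fit in the genes kept and the scaling, and the cause of the difference was not tested. The BRICHOS groups had the larger spread in each of the 7 genes other than *Mbp* and *Mobp*. The coefficient of variation of *Mag* was 73.9% in WT BRICHOS and 65.3% in *App* NL-G-F BRICHOS mice, and 48.4% and 20.7% in the veh groups. Leaving out each of the 12 libraries in turn left 2 members called, with log2 fold changes of *Mbp* from −2.28 to −1.65 and of *Mobp* from −2.36 to −1.70.

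Of the 29 other oligodendrocyte genes, 3 were called lower, where 16.9% of all tested genes were. A log2 fold change below 0 was found for 28, with a median of −1.09 over the 29. The 3 called lower were *Bcas1* (−2.02, adjusted p = 0.00352), *Plekhb1* (−1.76, adjusted p = 0.00337) and *Tppp* (−1.41, adjusted p = 0.00331). They are also the 3 that were closer in pattern to *Mbp* and *Mobp*. That measure kept the differences between groups, so the same values enter both and the match is no separate result. *Sox10* had −1.18 (adjusted p = 0.135), *Myrf* −1.03 (0.266), *Tspan2* −1.12 (0.175), *Cntn2* −1.11 (0.238), *Olig1* −0.74 (0.260), *Nfasc* −0.43 (0.494) and *Olig2* −0.49 (0.481). Besides larger differences, the 3 had smaller SEs, with 0.43 for *Bcas1* and 0.30 for *Tppp* but 0.69 for *Myrf*.

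Markers of other cells moved as well. The summed level of 8 astrocyte genes was 468 to 659 CPM in WT veh and 1506 to 4805 CPM in *App* NL-G-F veh mice, and all 8 were called higher, as were 20.1% of all genes. That of 8 neuronal genes was 24.5 to 28.7 against 8.73 to 12.0 CPM, and that of 8 endothelial genes 680 to 754 against 477 to 651 CPM, with 7 of the 8 endothelial genes called lower. The 6 genes of choroid plexus and ependyma had 850 to 3862 against 632 to 1932 CPM, with none called. The part of these cells in the difference of *Mbp* and *Mobp* was not tested. Between these groups, astrocyte genes moved in the opposite direction to the myelin genes. Neuronal, endothelial, mural and choroid plexus and ependymal genes had a median log2 fold change below 0, as the myelin genes did. Called lower were 5 of 7 tested neuronal and 2 of 6 mural genes, where 16.9% of all tested genes were.

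Of 10 genes of oligodendrocyte precursors, 9 had a log2 fold change above 0 in this comparison, with a median of 0.37, unlike the myelin genes. Called higher in *App* NL-G-F veh mice were 2 of the 10, near the share of 20.1% of all tested genes. They were *Cspg4* (3.31, adjusted p = 2.45e-07) and *Sox6* (1.47, adjusted p = 0.0490), both named after their values were seen. *Cspg4* had 9.71 to 10.4 CPM in WT veh and 80.0 to 115 CPM in *App* NL-G-F veh libraries, but *Pdgfra*, which defines the precursor, had 1.70 to 2.74 CPM in *App* NL-G-F veh and 2.31 to 4.84 CPM in WT veh libraries, with a log2 fold change of −0.50 (adjusted p = 0.579).

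The strains were also compared in treated mice, whose libraries are other than those compared above, although all 12 libraries set the spread of the fit. The members were again lower on average in *App* NL-G-F mice, by less, and 0 of 9 were called, where 21.8% of all genes were called lower, 20.8% higher and 42.5% in either direction. *Mbp* had 2917 ± 553 CPM in *App* NL-G-F against 4794 ± 2983 CPM in WT mice (log2 fold change −0.72 ± 0.40 (SE), 95% interval −1.60 to 0.17, adjusted p = 0.176 by edgeR), and *Mobp* 868 ± 155 against 1546 ± 979 CPM (−0.83 ± 0.40, −1.72 to 0.05, adjusted p = 0.120). The other 7 had −0.84 to −0.57 with adjusted p-values of 0.307 to 0.490. The unadjusted p was above 0.05 for all 9, the lowest being 0.0628 for *Mobp*, while 50.1% of all genes were below it. DESeq2's Wald test also called 0 of the 9.

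All 9 log2 fold changes were below 0, with a median of −0.74 against −0.04 over all genes, but the groups overlapped for each of the 9, where 26.4% of all genes had levels in *App* NL-G-F mice below all those of WT mice. In each case WT BRICHOS 1 was above, and WT BRICHOS 3 within or below, the *App* NL-G-F libraries. Without WT BRICHOS 3, *Mobp* was called (−1.12, adjusted p = 0.0426), where 18% of all genes were called lower, and without WT BRICHOS 1 the sign changed for 6 of the members, for instance to 0.27 for *Opalin* and 0.19 for *Mog*. With total counts in place of TMM factors *Mobp* was called at −1.11 (adjusted p = 0.0337), where the median of all genes was −0.31 and 45.4% were called lower.

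Among the 29 other oligodendrocyte genes the median was −0.74. *Tppp* was lower (−1.01, adjusted p = 0.0168) and *Trf* higher (0.33, adjusted p = 0.00332). *Bcas1* had −0.78 (adjusted p = 0.155) and *Plekhb1* −0.71 (0.142). Of the 10 precursor genes, 5 were called lower in *App* NL-G-F mice (*Pdgfra*, *Neu4*, *Lhfpl3*, *Cacng4* and *Vcan*), where 21.8% of all genes were called lower. Called higher was 1, namely *Cspg4* (2.89, adjusted p = 4.92e-07), with 120 ± 22.2 against 16.1 ± 4.05 CPM. All but *Pdgfra* were named after their values were seen. *Pdgfra* was at 2.83, 11.5 and 28.5 CPM in the 3 WT BRICHOS libraries and 1.81 to 2.26 CPM in those of *App* NL-G-F BRICHOS mice (−2.82, adjusted p = 0.00444). WT BRICHOS 2 and 3, the libraries with the most *Pdgfra*, had lower myelin transcripts than WT BRICHOS 1. The genes of choroid plexus and ependyma had 3204 to 6689 CPM in WT BRICHOS and 642 to 958 CPM in *App* NL-G-F BRICHOS mice, with all 6 called lower. Their part in the myelin values was not tested.

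**Figure D4:**
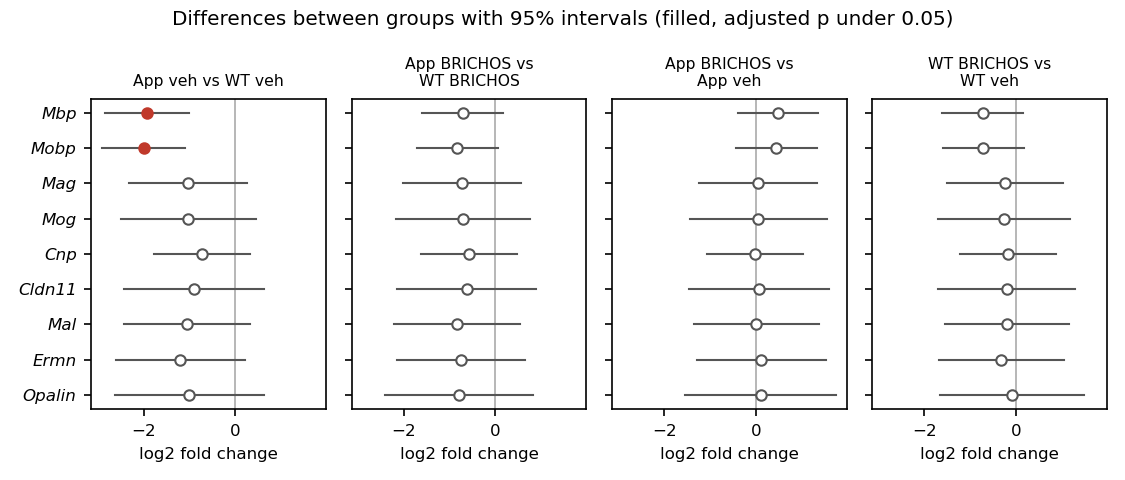
Log2 fold change of the 9 members in the 4 comparisons (points) with 95% intervals from the edgeR fit (lines, 3 libraries per group). Filled points passed an adjusted p of 0.05, which only *Mbp* and *Mobp* did, in veh-treated *App* NL-G-F against WT mice.

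No member was called for the treatment in either strain. In *App* NL-G-F mice, *Mbp* had 2917 ± 553 CPM with BRICHOS and 2083 ± 835 CPM with veh (log2 fold change 0.49, 95% interval −0.40 to 1.37, adjusted p = 0.731 by edgeR) and *Mobp* 868 ± 155 against 636 ± 250 CPM (0.45, −0.43 to 1.33, adjusted p = 0.755). The other 7 had log2 fold changes of −0.02 to 0.12, but with intervals from −1.54 to 1.76 at the widest (*Opalin*). Of all genes, 0.00648% were called in this comparison, and 10.8% had an unadjusted p under 0.05, which none of the 9 had (0.252 for *Mbp*).

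In WT mice, *Mbp* had 4794 ± 2983 CPM with BRICHOS and 7914 ± 2479 CPM with veh (−0.72, 95% interval −1.61 to 0.16, adjusted p = 0.537), and *Mobp* 1546 ± 979 against 2545 ± 850 CPM (−0.72, −1.60 to 0.16, adjusted p = 0.537). The other 7 had −0.32 to −0.09. The percentage of all genes called was 0, with 11.4% at an unadjusted p under 0.05 and *Mbp* at 0.0998. WT BRICHOS 1 was within or above the range of the WT veh libraries for all 9 members, and WT BRICHOS 3 was below all WT veh libraries.

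The treatment effect in *App* NL-G-F minus that in WT mice was 1.21 for *Mbp* (95% interval −0.04 to 2.46, adjusted p = 0.352) and 1.17 for *Mobp* (−0.08 to 2.42, adjusted p = 0.366). It was called for 0 of 9 members and for 0.00648% of all genes, and 14.8% of all genes but none of the 9 had an unadjusted p under 0.05 (0.0567 for *Mbp*). DESeq2's Wald test called 0 members for the treatment in either strain and for the difference. With 3 mice per group and the spread seen here, differences up to the ends of these intervals cannot be told from none. The 4 comparisons share groups, so the values of *Mbp* in WT veh mice enter the comparison of strains, that of treatments and the difference of the treatment effects.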

How the data were processed

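RNA-sequencing counts of CD11b-positive cortical cells from 12 male mice were used, with 3 libraries in each of 4 groups. Per the labels and the methods of the study, libraries were made with a stranded mRNA kit, reads were trimmed, aligned to GRCm38 with STAR (2.6.1d in the submitters' processing notes) and counted on genes with featureCounts 1.5.1. The authors deposited raw counts per gene, without normalization, for 55487 genes. The strand setting is not given in the sources used here.

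Genes were kept by filterByExpr (minimum count 10) and tested with edgeR 4.0.16 in R 4.3.3, with TMM factors, a mean for each group, all 12 libraries in the fit and the quasi-likelihood test, with Benjamini-Hochberg adjustment over 15425 genes and a threshold of 0.05. Standard errors and 95% intervals come from the F statistic of this fit. CPM use TMM factors, and log2 CPM a prior count of 2. Levels per kb use the exon length of GENCODE for GRCm38. The test was checked on simulated counts. Each library is from another mouse. Equally numbered libraries were not paired in the main fit, and the labels do not say whether they were handled together. The 9 members and the gene lists were chosen with earlier results of these data known. Of the other oligodendrocyte genes, those named are the 8 with the highest mean level and the defining genes of the lineage, besides genes said to be named after their values were seen. Some of the listed genes are not reported here by name. Alternatives were DESeq2 1.42.0 (size factors, and the Wald test with all or only the compared libraries), edgeR with only the compared libraries, total counts only, other filters, a replicate block, and each library left out. Intervals cover the spread between libraries of a group, in which mouse and isolation are not separated. They do not cover a difference in isolation between groups.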

Additional observations from a re-analysis of the deposited data

How the results depend on the processing

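In veh-treated *App* NL-G-F against WT mice, all 9 members kept their direction under each alternative, and *Mbp* and *Mobp* stayed below an adjusted p of 0.05. The number called was 2 in the main fit and with each library left out (2 to 2), 6 with edgeR and 4 with DESeq2's Wald test when only the compared groups were fitted. In BRICHOS-treated *App* NL-G-F against WT mice it was 0, and 1 with total counts only (*Mobp*), with 0 to 1 when each library was left out. For both treatment comparisons and the difference of the treatment effects it was 0 under each alternative. The cause of these changes was not tested.

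With a replicate block, *Mbp* had −1.87 (adjusted p = 0.00831) and *Mobp* −1.95 in veh-treated *App* NL-G-F against WT mice. The block changed no call of a member. The labels give equally numbered libraries no more than a shared number. The correlations of their deviations from the group means ran from −0.0148 to 0.227. These values cannot settle whether such libraries were handled together. For BRICHOS against veh in *App* NL-G-F mice it turned *Mog* to −0.18, *Mag* to −0.19, *Cldn11* to −0.21, *Mal* to −0.24, *Ermn* to −0.084 and *Opalin* to −0.18, and total counts only turned *Mal* to −0.014.

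Leaving out single libraries turned the direction of members other than *Mbp* and *Mobp* in some comparisons, but not in veh-treated *App* NL-G-F against WT mice. None of these members was called. In BRICHOS-treated *App* NL-G-F against WT mice, log2 fold changes ran for *Ermn* from −1.33 to 0.17, for *Mal* from −1.59 to 0.019, for *Cldn11* from −1.41 to 0.23, for *Cnp* from −1.05 to 0.045, for *Mog* from −1.41 to 0.19 and for *Opalin* from −1.65 to 0.27. For BRICHOS against veh in *App* NL-G-F mice they ran for *Ermn* from −0.45 to 0.43, for *Mal* from −0.74 to 0.40, for *Cldn11* from −0.70 to 0.49, for *Mag* from −0.59 to 0.41, for *Cnp* from −0.51 to 0.27, for *Mog* from −0.64 to 0.45 and for *Opalin* from −0.74 to 0.53. In WT mice they ran for *Ermn* from −1.25 to 0.16, for *Mal* from −1.06 to 0.24, for *Cldn11* from −1.07 to 0.29, for *Mag* from −0.96 to 0.22, for *Cnp* from −0.80 to 0.20, for *Mog* from −1.16 to 0.22 and for *Opalin* from −1.16 to 0.46. *Mbp* and *Mobp* kept their direction in each of these comparisons. The fit of only the compared groups could not be applied to the difference of the treatment effects.

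Of the 10 genes most like the 9 members, 4 were also among the first 10 without removing group means and 5 by rank correlation. Even *Opalin* had at least 79 counts in each library, but with 3 mice per group its level differed up to 10.7-fold within a group (WT BRICHOS). The source of this spread was not tested.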
